A study of Capra hircus with 3 samples.

Results

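The genes of suprabasal and mucosal-type epithelium described here are KRT1, KRT10, KRT4, KRTDAP, SBSN and CALML5, followed in single cells of fetal goat skin. They were chosen by name, 6 of the 16739 genes in the table, to set the periderm- or mucosal-type keratin KRT4 against the epidermal keratins KRT1 and KRT10 and to ask which of them were found in the same cells. The samples were dorsal skin of Cashmere goat fetuses at embryonic days 60, 90 and 120 (E60, E90 and E120), labelled as the induction, organogenesis and cytodifferentiation stages of the hair follicle. Each stage was 1 library of pooled cells from at least 2 fetuses, read with a 3′ droplet method that counts unique molecular identifiers (UMIs). At E60 and E90 whole back skin was dissociated with collagenase IV. At E120 hair follicles were dissected out first and then treated with collagenase and TrypLE, so stage and preparation cannot be told apart.

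Keratinocytes that leave the basal layer of the epidermis stop making KRT5 and KRT14 and switch on KRT1, a type II keratin, and its type I partner KRT10, which together fill the spinous layer. KRT4 is a type II keratin of moist, non-cornified surfaces such as the mouth and oesophagus, and in the fetus it is also known from the periderm and the intermediate cells beneath it, which cover the skin before it cornifies. KRTDAP and SBSN encode small secreted proteins of differentiating keratinocytes from one gene cluster, in which DMKN lies between them in the RefSeq assembly ARS1.2, and CALML5 encodes a calmodulin-like calcium-binding protein of the upper epidermal layers.

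The libraries held 6849, 6931 and 6896 cells at E60, E90 and E120, with 65049552, 30277663 and 93403291 UMIs and medians of 8579, 3714 and 13064 UMIs per cell. Cells were clustered without the 6 genes and without the lists of differentiation and periderm genes, and clusters were named from marker genes. Epithelial-like cells numbered 3 at E60, 2068 (29.8%) at E90 and 5040 (73.1%) at E120. Dermal-, endothelial-, mast-, myeloid- and Schwann-like cells, called here cells outside the epithelium, numbered 5699, 737 and 698. At E90 another 4126 cells stayed unnamed, 2472 of them in a cluster led by TRPM1 and 1577 in one led by mitochondrial genes. Cell barcodes shared between libraries numbered 9 to 13 for each pair. With 1 library per stage no spread between animals could be estimated, so no test was possible. All intervals below are 95% intervals that cover counting error only.

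All 6 genes were at or near 0 at E60, high at E90, and divided at E120. KRT1, the type II spinous keratin, gave 0, 61567 and 4181 UMIs at the successive stages. Scaled to 1000000 UMIs per library (CPM), this was 0, 2033 (2017 to 2050) and 44.8 (43.4 to 46.1). KRT10, its partner, gave 1.61, 728 and 19.8 CPM. KRT4 gave 0, 695 (686 to 705) and 0.0964 (0.0441 to 0.183) CPM, the last from 9 UMIs in 9 cells. These 3 keratins shared a peak at E90, and KRT4 was the nearest to 0 afterwards.

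KRTDAP followed the keratins with 0, 171 and 4.98 CPM. SBSN did not, with 4.61 CPM at E60, 579 at E90 and 435 at E120. CALML5 resembled SBSN, at 0, 34.2 and 24.7 CPM.

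From E60 to E90 each of the 6 genes was higher by more than 2-fold on the log2(CPM + 1) scale, where 23.6% of the 11419 genes measured were that much higher and 6.26% that much lower. KRT1, KRT4, KRTDAP and CALML5 had 0 UMIs at E60, so once measured against E60 they could only be called higher. From E90 to E120, 4 of the 6 were lower by more than 2-fold, against 24.7% of 11486 genes, and none was that much higher, against 7.64%. KRT1 was 45.4-fold (44.0 to 46.9), KRT10 36.7-fold (35.0 to 38.5) and KRTDAP 34.4-fold (31.3 to 37.9) lower. Without the E120 cell with the most KRT1 UMIs the folds were 54.6 for KRT1, 44.15 for KRT10 and 39.4 for KRTDAP. Each of these lies above its interval, which leaves out the spread between cells. Whether the intervals overlap therefore cannot rank these genes. KRT4 was 7217-fold (3801 to 15784) lower. These folds are ratios of CPM with no pseudocount. On the log2(CPM + 1) scale the ratios were -5.47 for KRT1, -5.13 for KRT10, -4.85 for KRTDAP and -9.31 for KRT4. SBSN was 1.33-fold and CALML5 1.39-fold lower, which is within 2-fold, and the median over all measured genes was itself -0.35 on the log2 scale. From E60 to E120, 5 of 6 were higher, against 18.4% of 10988 genes, and none was lower, against 19.3%. The exception was KRT4. The E90-to-E120 values mix the level per cell with the share of cells of each kind, and fewer cells of a type and less RNA per cell cannot be told apart in them.

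Within epithelial-like cells alone the keratins and KRTDAP were again far lower at E120, and SBSN and CALML5 less so. KRT1 stood at 3434 CPM in them at E90 and 53.7 at E120, KRT10 at 1406 and 23.4, KRT4 at 1196 and 0.117, and KRTDAP at 292 and 6.001. SBSN stood at 1015 and 521 CPM and CALML5 at 65.4 and 29.1. SBSN was thus 1.95-fold (1.91 to 1.99) lower, within 2-fold, and CALML5 2.25-fold (2.05 to 2.45) lower, past it, against 48.7-fold (44.1 to 53.9) for KRTDAP. With every cell thinned to 2000 UMIs, the share of all cells with a UMI from E90 to E120 was 53.4% and 0.928% for KRT10, 55.6% and 0.0145% for KRT4, 23.6% and 0.609% for KRTDAP, 51.5% and 12.96% for SBSN, and 5.74% and 3.06% for CALML5. Unthinned, SBSN was found in 72.5% and 30.0% and CALML5 in 10.6% and 13.4% of cells, so for CALML5 the direction of the share turned with depth.

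**Figure D1:**
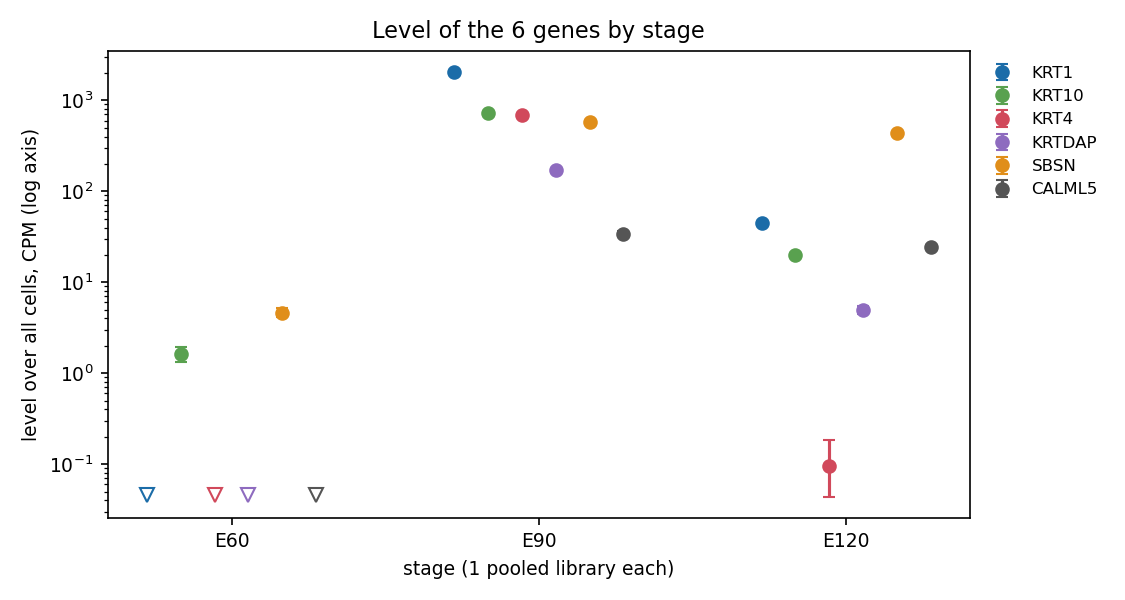
Level of each of the 6 genes over all cells of a library in CPM (log axis) at E60, E90 and E120, 1 pooled library per stage, with 95% counting intervals. Open triangles mark genes with 0 UMIs, drawn at the level of 3 UMIs (0.0461 CPM at E60). At E120 SBSN (435 CPM) and CALML5 (24.7 CPM) stayed within 2-fold of E90 while KRT4 lay at 0.0964 CPM.

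The E60 library had almost no epithelium in which these genes could be read. KRT1, KRT4, KRTDAP and CALML5 had no UMI in 6849 cells, which allows a share of up to 0.0438% of cells with a UMI. The 105 KRT10 UMIs came from 59 cells, and 46 of them came from 1 cell of 15458 UMIs that clustered with the epithelium. That cell had none of the other 5 genes. Without it KRT10 stood at 0.907 CPM. SBSN gave 300 UMIs in 276 cells, 256 of which had a single UMI, and its level ran from 2.31 to 12.9 CPM across 13 clusters of at least 20 cells. SBSN at E60 was thus thin and spread over fibroblast, endothelial and myeloid clusters alike.

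At E90 all 6 genes were high in 1 epithelial cluster of 813 cells, and all but KRTDAP were highest there. It is named here after SERPINA12, one of its leading genes beside SPP1, LYPD2, MMP7 and EHF. Its epithelial markers, such as KRT5 (704 CPM) and KRT14 (1273 CPM), summed to 10330 CPM against 1516 CPM in cells outside the epithelium. KRT1 stood at 7360 CPM in it, KRT10 at 3121, KRT4 at 2655, KRTDAP at 605, SBSN at 2233 and CALML5 at 148 CPM. The cluster held 11.7% of E90 cells and between 44.2% (KRTDAP) and 54.2% (CALML5) of the E90 UMIs of each gene. Dermal markers summed to 3760 CPM there and to 16091 CPM outside the epithelium, and red blood cell markers to 2243 and 418 CPM; their part in the members' levels was not tested.

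KRT1 RNA was found in nearly every E90 cell. It had a UMI in 97.4% of all E90 cells, and in 87.3% once each cell was thinned to 2000 UMIs. Outside the epithelium, where a keratin should be lacking, KRT1 was still found in 65.4% of thinned cells at 596 CPM, KRT10 in 35.0% at 209 CPM, KRT4 in 36.2% at 200 CPM and SBSN in 28.5% at 162 CPM. Median depth there was 4946 UMIs against 4002 in the SERPINA12 cluster. These values are the background against which every E90 level has to be read. The SERPINA12 cluster lay above that background by 11.98-fold (10.4 to 13.9) for KRTDAP, 12.4-fold (11.9 to 12.9) for KRT1, 13.3-fold (12.4 to 14.3) for KRT4, 13.8-fold (12.8 to 14.96) for SBSN, 14.96-fold (13.96 to 16.1) for KRT10 and 17.4-fold (12.3 to 25.2) for CALML5. These intervals leave out the spread between cells, so they cannot rank the 6 genes. For KRTDAP, 1 cell of the cluster held 82 of its 2293 UMIs.

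The follicle-type epithelium of E90 stayed close to background. In the cluster of 1206 cells led by LHX2 and SEMA3E, genes of the hair bud and germ, KRT1 stood at 926 CPM, KRT10 at 311, KRT4 at 264, KRTDAP at 73.0, SBSN at 239 and CALML5 at 12.9. These are 1.32- to 1.55-fold the levels outside the epithelium. KRT1 and KRT10 kept about the same proportion: 2.98 KRT1 UMIs per KRT10 UMI in the LHX2 cluster (2.82 to 3.14), 2.86 (2.64 to 3.09) outside the epithelium and 2.80 (2.71 to 2.90) in the unnamed TRPM1 cluster. For KRT4 there were 0.285 UMIs per KRT1 UMI (0.269 to 0.301) in the LHX2 cluster and 0.289 (0.279 to 0.299) in the TRPM1 cluster, against 0.335 (0.309 to 0.363) outside as a whole. That outside value pooled 0.356 (0.321 to 0.394) in dermal-like and 0.356 (0.282 to 0.446) in mast-like cells with 0.279 (0.221 to 0.349) in endothelial-like and 0.290 (0.226 to 0.369) in myeloid-like cells. The difference thus did not hold for every class outside the epithelium. The SERPINA12 cluster had 2.36 KRT1 UMIs per KRT10 UMI (2.31 to 2.41). The mitochondrial cluster had 4.68 (4.48 to 4.89), with 1723 CPM of KRT1 but 368 of KRT10, so its proportion differed. It held 4479 of the 21054 E90 KRT4 UMIs, or 1.83 per KRT10 UMI (1.74 to 1.92), against 0.851 (0.828 to 0.874) in the SERPINA12 cluster. Per KRT1 UMI there were 0.391 (0.378 to 0.405) and 0.361 (0.353 to 0.369). All unnamed E90 cells together held 8612 KRT4 and 25742 KRT1 UMIs, so much of both lay outside the SERPINA12 cluster.

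KRTDAP had a second site. In 46 epithelial-like cells led by FA2H, SDR16C5 and SOAT1, genes of lipid metabolism, KRTDAP stood at 690 CPM (577 to 818), as high as in the SERPINA12 cluster and 13.7-fold (10.9 to 17.1) above cells outside the epithelium. KRT1 (921 CPM) stood at 1.55-fold (1.32 to 1.80) the outside level in these cells, KRT10 (305 CPM) at 1.46-fold (1.10 to 1.91), KRT4 (263 CPM) at 1.32-fold (0.969 to 1.75) and SBSN (205 CPM) at 1.27-fold (0.894 to 1.75). These folds resemble those of the LHX2 cluster. CALML5 had 0 UMIs there, which allows up to 15.8 CPM. Of the 5 genes found in that cluster only KRTDAP was more than 2-fold above the outside level, with 0.749 UMIs per KRT1 UMI (0.592 to 0.944) against 0.0848 (0.0732 to 0.0977) outside the epithelium. The cluster is small and all of it came from 1 library.

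**Figure D2:**
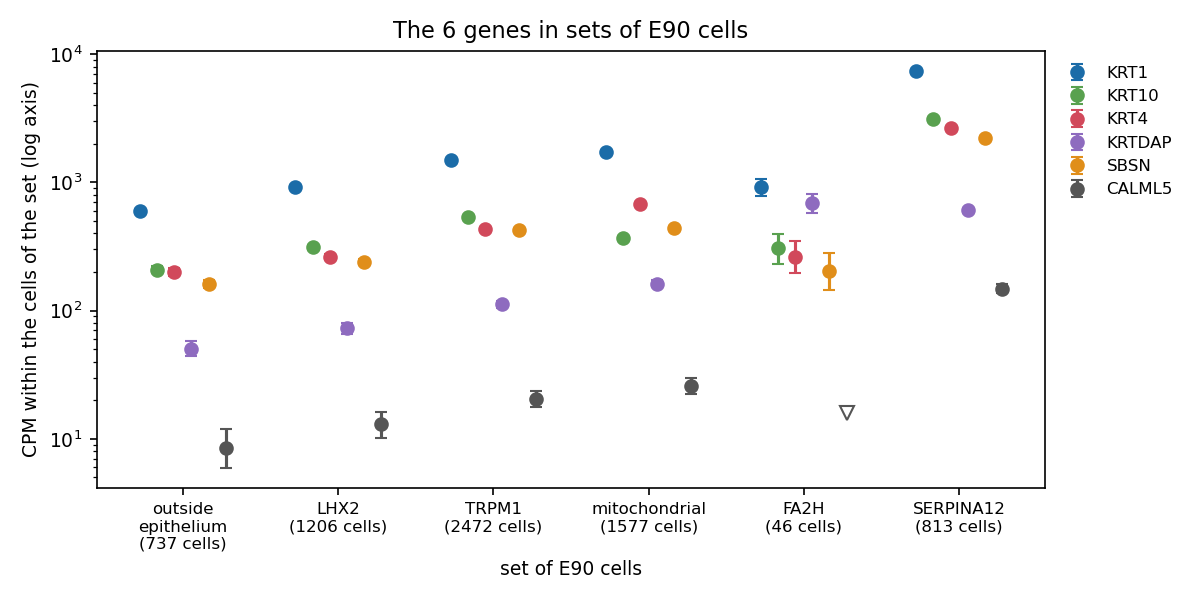
Level of each gene in CPM (log axis) in sets of E90 cells, with 95% counting intervals. The open triangle marks CALML5 at 0 UMIs in the FA2H cluster, drawn at the level of 3 UMIs. The LHX2 cluster lies 1.32- to 1.55-fold above cells outside the epithelium, the SERPINA12 cluster is higher for all 6 genes, and in the FA2H cluster KRTDAP alone reaches the level of the SERPINA12 cluster.

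In the SERPINA12 cluster KRT4 and the epidermal keratins were found in the same cells. There, thinned to 2000 UMIs, 542 of 813 cells had KRT4 and 538 of those also had KRT1 or KRT10, a share of 99.3% (98.1 to 99.8). Only 4 cells had KRT4 alone. The reverse did not hold to the same extent: of 785 cells with KRT1 or KRT10, 247 had no KRT4, so 68.5% had it. At this threshold the first share says little, because KRT1 or KRT10 was also found in 91.1% (87.1 to 94.2) of the cluster's cells without KRT4. In cells outside the epithelium, which should lack these genes, the shares with and without KRT4 were 78.3% (72.8 to 83.1) and 72.1% (67.8 to 76.1).

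A stricter count set the bar above the 99th percentile of cells outside the epithelium, at more than 6 UMIs of KRT1, 3 of KRT10 and 3 of KRT4 per 2000 UMIs. This bar was chosen after the data were seen. By it 280 cells of the SERPINA12 cluster had KRT4, of which 275 (98.2%, 95.9 to 99.4) also had KRT1 or KRT10, while 230 cells had an epidermal keratin and no KRT4. After the top 6% of each library by doublet score had been left out, the share was 98.4%. Of the cluster's cells below the KRT4 bar, 43.2% (38.9 to 47.5) had KRT1 or KRT10 above theirs. Within the SERPINA12 cluster the KRT4 cells were therefore nearly all contained in the KRT1 and KRT10 cells, and the epidermal keratins reached further than KRT4. Outside it this did not hold. Over all E90 cells the stricter share was 72.4% (67.9 to 76.7), 302 of 417 cells. Of the 417 cells, 127 lay in unnamed clusters, and 102 of these had no epidermal keratin above the bar, while 25 (19.7%) had one, against 9.55% of the unnamed cells without KRT4. Another 8 lay in the LHX2 cluster, where 2 of 8 had an epidermal keratin.

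Cells with more KRT1 had more KRT4, but not in proportion. When the 813 cells were ranked by KRT1 and divided into 4 bins of 203 or 204 cells, the median KRT1 was 1, 6, 14 and 32 UMIs per 2000. The median KRT4 in the same bins was 0, 1, 4 and 5 UMIs, and that of KRT10 was 1, 1, 6 and 14. Mean KRT4 was 8.22 UMIs in bin 3 and 6.94 in the highest, so KRT10 kept pace with KRT1 in the top bin and KRT4 did not. KRT4 exceeded the background bar in 2.45%, 22.7%, 51.7% and 61.1% of the cells of the 4 bins.

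Among 328 cells with at least 50 UMIs of the 3 keratins together, KRT4 made up a median of 13.1% of them, from 1.44% at the 10th to 50.8% at the 90th percentile. In 34 cells KRT4 UMIs outnumbered those of KRT1 and KRT10 together, and the highest share was 73.0%. Since UMIs per transcript can differ between genes, these shares order the cells and do not give the keratin composition of a cell. None of the 328 had KRT4 alone, which says little, because KRT1 had a UMI in 805 of the 813 cells of the SERPINA12 cluster before thinning.

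**Figure D3:**
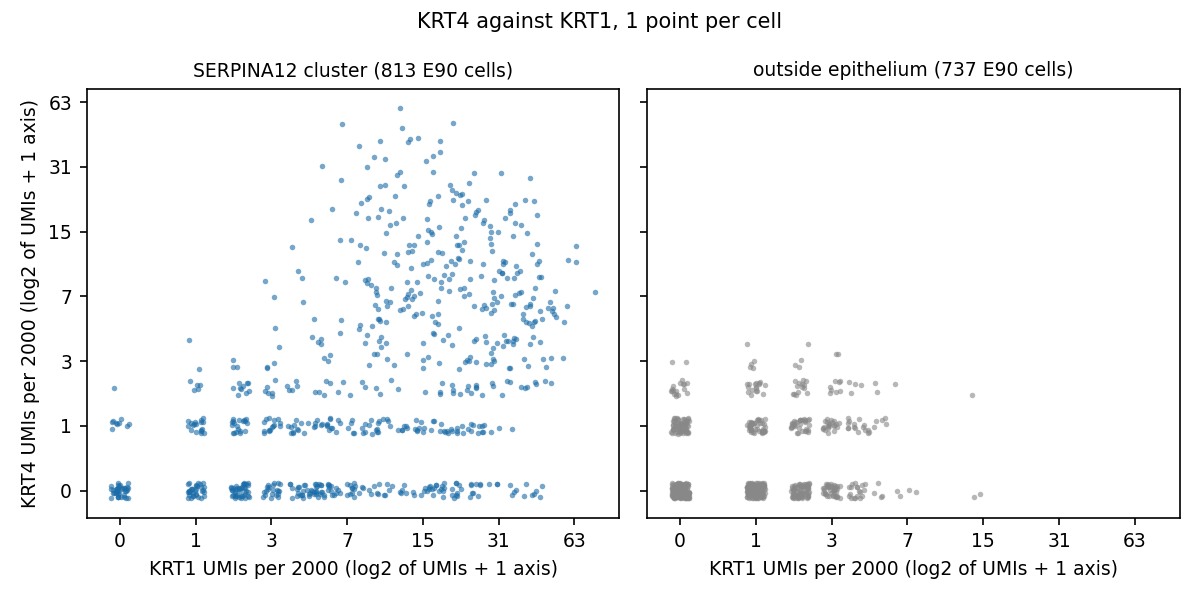
KRT4 against KRT1 UMIs in single E90 cells thinned to 2000 UMIs (log2 of UMIs + 1 on both axes, small random shifts added), for the 813 cells of the SERPINA12 cluster and the 737 cells outside the epithelium. High KRT4 occurs at middle and high KRT1, and cells at 0 KRT1 have few KRT4 UMIs in the left panel.

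Correlations over the 813 cells, which share a library and vary in depth, describe the same order. On the scale of ln(1 + counts per 10000), Pearson's r was 0.81 for KRT1 and KRT10, 0.67 for KRTDAP and SBSN, the gene neighbours, 0.59 for KRT10 and KRT4, and 0.53 for KRT1 and KRT4. CALML5 was loosest, at 0.26 to 0.48 with the others. Over all 6931 E90 cells the values were lower, with 0.54 for KRT1 and KRT10. There the 5 genes most like KRT4 were KRT1 (0.42), LYPD2 (0.39), SBSN (0.35), KRT10 (0.33) and ENSCHIG00000023504 (0.31). SPINK5, a serine protease inhibitor of the upper epidermis, was among the 5 genes most like KRT1 (0.45), KRT10 (0.42), SBSN (0.37) and KRTDAP (0.31). LYPD2 also stood among the 5 for KRTDAP (0.31) and CALML5 (0.25). For each gene, 3 to 4 of the 5 were other members of the set.

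LYPD2, a small surface protein gene, followed KRT4 closely within the SERPINA12 cluster. There its r was 0.74 with KRT4 and 0.52 with KRT1. SPINK5 leaned the other way, at 0.57 with KRT4 and 0.74 with KRT1, and so did the desmosomal genes DSC1 (0.22 and 0.45) and DSG1 (-0.03 and 0.23). Over all cells LYPD2 gave 0, 141 and 0.353 CPM at the successive stages, high at E90 and near 0 at E120 like KRT4. Of 9 genes of a list for periderm, simple and mucosal epithelium that could be read in these cells, 7 had a higher r with KRT4 than with KRT1, against 12 of 31 differentiation genes and 54.8% of all 9314 genes. The list's median r, however, was -0.07 with KRT4 and -0.06 with KRT1, so the median did not lean to KRT4. KRT7 (-0.32 with KRT4), KRT8 (-0.18) and KRT19 (-0.24), keratins of simple epithelium, ran against KRT4, and more so against KRT1 (-0.37, -0.26 and -0.39). KRT14, the basal keratin, did likewise with -0.32 and -0.36.

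Groups within the SERPINA12 cluster, again formed without the 6 genes, differed in their mix. The largest, 450 cells led by TIMP1, SOSTDC1 and COL17A1, had 7363 CPM of KRT1, 2686 of KRT10, 1265 of KRT4, 391 of KRTDAP, 1487 of SBSN and 87.4 of CALML5. A group of 186 cells led by NPPB, CRBP2 and SERPINA12 had 12399 CPM of KRT1, 6284 of KRT10, 7580 of KRT4, 1204 of KRTDAP, 4833 of SBSN and 218 of CALML5. All 6 genes were higher in the second group, and KRT4 by the most: 5.99-fold (5.73 to 6.28), against 3.25-fold (3.10 to 3.41) for SBSN, 3.08-fold (2.81 to 3.38) for KRTDAP, 2.49-fold (2.03 to 3.07) for CALML5, 2.34-fold (2.25 to 2.43) for KRT10 and 1.68-fold (1.64 to 1.73) for KRT1. There were 0.611 KRT4 UMIs per KRT1 UMI in the NPPB group and 0.172 in the TIMP1 group. In the NPPB group 97.8% of cells had KRT4 after thinning, and 100% had KRT1. One NPPB cell held 465 of the 7097 KRT4 UMIs, and without it KRT4 stood at 7192 CPM.

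A further group, 56 cells led by MMP7, GPRC5A and WFDC2, had less keratin and more of the secreted and calcium-binding genes. KRT1 (3729 CPM) and KRT10 (1535 CPM) were 1.97-fold and 1.75-fold lower than in the TIMP1 group. CALML5 (613 CPM) was 7.01-fold (5.62 to 8.75), KRTDAP (1296 CPM) 3.32-fold (2.91 to 3.77) and SBSN (3004 CPM) 2.02-fold (1.87 to 2.19) higher. KRT4 (1169 CPM) was level with the TIMP1 group, 0.924-fold (0.818 to 1.04). The highest CALML5 of any E90 group was found here. In the last groups, 75 cells led by SPP1 and EHF and 46 led by haemoglobin genes, KRT1 stood at 688 and 1807 CPM, near the level outside the epithelium in the first of them.

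**Figure D4:**
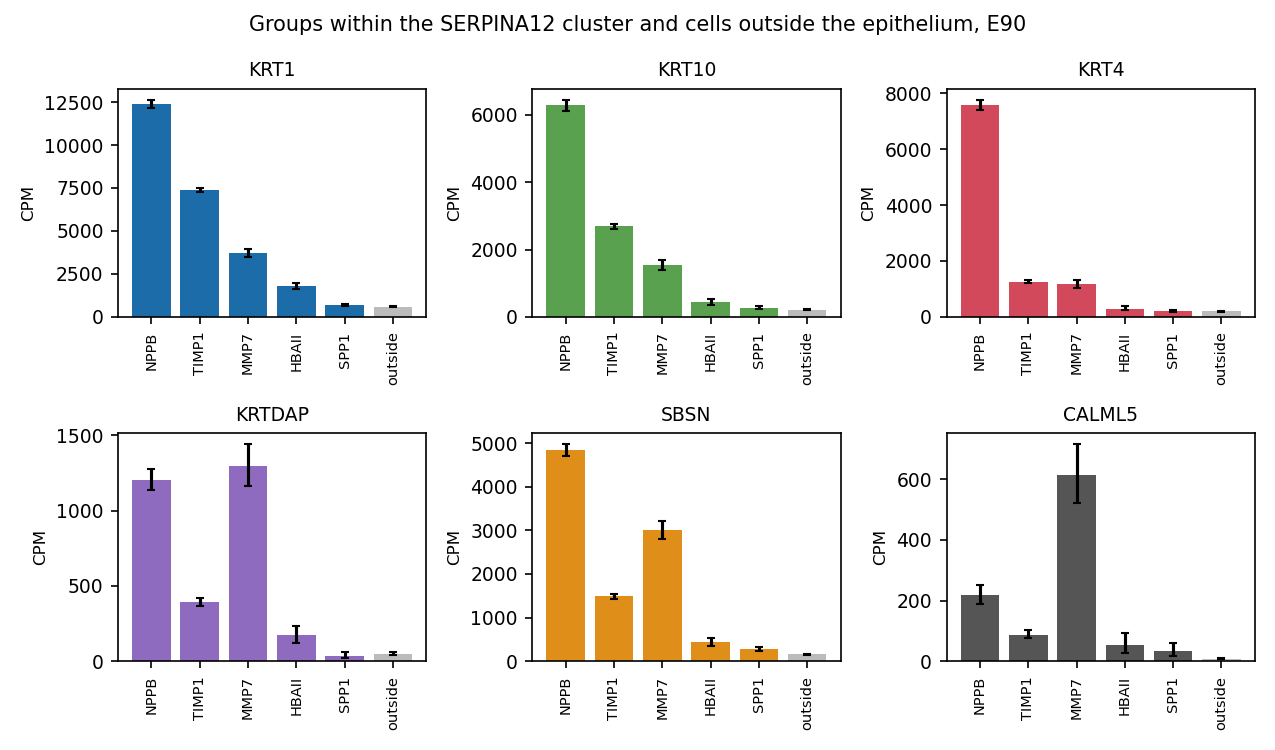
Level in CPM of each gene in the 5 groups within the SERPINA12 cluster (coloured bars) and in cells outside the epithelium (grey bars) at E90, with 95% counting intervals; each panel has its own axis from 0. The NPPB group has the highest KRT1, KRT10, KRT4 and SBSN, and the MMP7 group the highest CALML5 (613 CPM).

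At E120 the genes divided mainly between 2 epithelial clusters. In the KLK7 cluster, 400 cells led by SPP1, KLK7, KRT17, CST6 and KRT14, KRT1 stood at 540 CPM, KRT10 at 619, KRT4 at 0.791 (2 UMIs), KRTDAP at 130, SBSN at 3118 and CALML5 at 56.2. The KRT27 cluster, 734 cells with the inner root sheath keratins KRT27 (11990 CPM) and KRT71 (27208 CPM), had KRT1 at 207 CPM, KRT10 at 2.60, KRT4 at 0, KRTDAP at 8.20, SBSN at 2415 and CALML5 at 105. Cells outside the epithelium had 6.04, 2.498, 0, 0.208, 52.9 and 1.87 CPM, so the E120 background was low. KRT10 and KRTDAP were found mainly in the KLK7 cluster, with 84.4% and 70.5% of their E120 UMIs, and SBSN, KRT1 and CALML5 mainly in the KRT27 cluster, with 73.2%, 60.9% and 56.3%. The KLK7 cluster cannot be called suprabasal as a whole. KRT14 stood at 13137 CPM in it, KRT17 at 14717 and KRT5 at 1125, keratins of basal and outer root sheath cells, and 34 of its 400 cells had a KRT10 UMI. The E120 RNA of KRT10 and KRTDAP lay mostly in this cluster, and most of the E120 RNA of SBSN, KRT1 and CALML5 lay in sheath-type cells.

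Within the KLK7 cluster the epidermal pattern sat in a few cells. A group of 76 cells led by PAGE4, SERPINA1 and APCDD1 held 1359 of the cluster's 1365 KRT1 UMIs and 1559 of its 1564 KRT10 UMIs. Its levels were 2290 CPM of KRT1, 2627 of KRT10, 543 of KRTDAP, 10832 of SBSN and 192 of CALML5. Not all of the 76 took part: 22 had KRT1, 29 had KRT10, 21 had KRTDAP and 62 had SBSN. A single cell of 25373 UMIs had 704 KRT1, 313 KRT10, 873 SBSN, 59 KRTDAP and 23 CALML5 UMIs, and no KRT4. Without it KRT1 stood at 1153 CPM in the PAGE4 group, KRT10 at 2194 and SBSN at 9779, and KRT1 at 264 CPM in the KLK7 cluster. Over the whole library KRT1 was then at 37.2 CPM, 54.6-fold below E90.

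In the KLK7 cluster cells with one member tended to have the others. For each of the 10 pairs of KRT1, KRT10, KRTDAP, SBSN and CALML5, cells with the first gene were compared with cells without it. The second gene was found in a larger share of the former in every pair, with intervals that did not overlap. Of 20 thinned cells with KRT1, 15 had KRT10 (75.0%), against 3.42% of the cells without it. The r of KRT1 and KRT10 was 0.76 over the 400 cells. At E90 the same held for 14 of 15 pairs in the SERPINA12 cluster, 5 of 15 in the LHX2 cluster and 4 of 15 outside the epithelium. How many pairs of other genes pass this rule was not tested in any of these sets. These counts therefore do not show that the pairing is particular to the members. The intervals also treat cells of the same library as independent. In the PAGE4 group, as in no E90 group, KRT10 UMIs outnumbered KRT1 UMIs, at 0.872 KRT1 per KRT10 (0.810 to 0.938), and 0.528 in the KLK7 cluster without the cell above. This was not particular to the PAGE4 group at E120. At far fewer UMIs the ratio was 0.355 (0.208 to 0.585) in the HS3ST2 cluster and 0.400 (0.199 to 0.763) in the TOP2A cluster. It was 1.63 (1.18 to 2.27) in the CENPW cluster and 4.90 (2.45 to 10.8) in the KRT84 cluster. SBSN in the PAGE4 group was 4.85-fold (4.70 to 5.01) higher than in the whole E90 SERPINA12 cluster, KRT10 1.19-fold lower and KRT1 3.21-fold lower. Against the NPPB group, the E90 group with the most SBSN, SBSN was 2.24-fold (2.16 to 2.33) higher, KRT10 2.39-fold lower and KRT1 5.41-fold lower. Both comparisons are between libraries of different preparation.

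SBSN was also carried by cells with hardly any KRT1 or KRT10. In 82 KLK7-cluster cells led by GABRP and KRT14, SBSN stood at 1554 CPM, while KRT1 and KRT10 had 1 UMI each. That level was uneven: 54 of the 82 cells had an SBSN UMI and 21 had 10 or more. Of this group 12.2% lay among the highest doublet scores. In 80 cells of the KRT27 cluster with the highest KRT27, SBSN stood at 6632 CPM (6517 to 6748) and every cell had it after thinning, while KRT1 stood at 50.8 CPM and KRT10 at 1.05. At E120 the genes most like SBSN over all 6896 cells were SPINK5 (0.66) and the sheath keratin KRT71 among others, and within the KRT27 cluster they were KRT27 (0.81), KRT71 (0.78) and KRT25 (0.75); these E120 genes were named after their values were seen.

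KRT1 in the KRT27 cluster came without its partner. The cluster had 2548 KRT1 and 32 KRT10 UMIs, a ratio of 79.6 (56.3 to 117), and KRT10 was at the level outside the epithelium (1.04-fold, 0.521 to 2.22). KRT1 was found in 231 of the 734 cells and was highest in 239 cells led by SLC39A8 and KRT28, at 454 CPM, against 50.8 CPM in the 80 KRT27-high cells, 8.95-fold (7.29 to 11.1). SBSN went the other way, 2846 against 6632 CPM. KRT1 belongs to a family of type II keratins of similar sequence, among them KRT71, and how reads that match several of them were counted is not given in the sources used here, so the KRT1 of sheath cells is uncertain. Over the cluster SBSN was found in 84.5% of the thinned cells with KRT1, against 53.6% of those without it. Such a difference between cells with and without KRT1, with intervals apart, was not found for KRT10, KRTDAP or CALML5. Of the 10 pairs of members in this cluster, 3 had intervals apart, and pairs of other genes were not tested here either. The r of SBSN was 0.43 with CALML5 and 0.34 with KRT1.

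CALML5 at E120 was highest in sheath cells and the PAGE4 group. It stood at 195 CPM in the KRT27-high cells and 179 CPM in 60 KRT27-cluster cells led by haemoglobin genes, about the level of the PAGE4 group. Lower levels were spread over other epithelial clusters: 56.2 CPM in the KLK7 cluster as a whole, 28.7 in the KRT84 cluster (177 cells) and 18.0 in the CENPW cluster (931 cells). In 298 cells led by CNFN, SERPINB13 and KRT23 (the PRPH cluster) CALML5 stood at 47.0 CPM (41.4 to 53.2) while KRT1 and KRT10 stood at 3.15 CPM each and KRTDAP had no UMI. Of the 9 KRT4 UMIs of the library, 4 lay in that cluster and 2 in the PAGE4 group, with at most 1 in a cell. KRT4 was near 0 in every E120 cluster, at most 0.791 CPM.

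**Figure D5:**
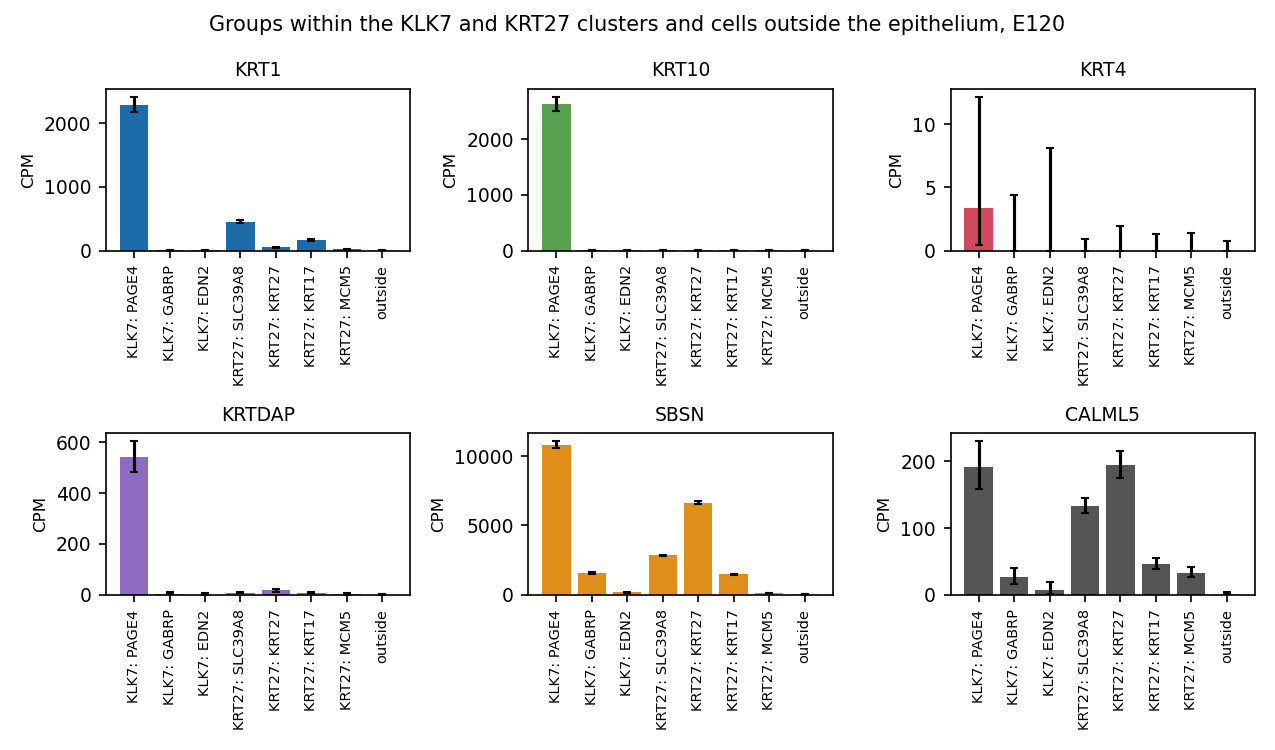
Level in CPM of each gene in groups within the KLK7 and KRT27 clusters (coloured bars) and in cells outside the epithelium (grey bars, near 0) at E120, with 95% counting intervals; each panel has its own axis from 0. KRT10 and KRTDAP stand in the PAGE4 group, SBSN and CALML5 also in the KRT27-high group, and the only KRT4 bar rests on 2 UMIs.

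The other genes of terminal differentiation shared the first part of this course. Of 40 such genes found in the table out of 57 listed, 31 of the 32 that could be measured were more than 2-fold higher at E90 than at E60, against 23.6% of all genes, and none was that much lower. Only ALOX12B, CLDN1, CST6, ELOVL4 and ST14 reached 1 CPM at E60. The others were measured only through E90 and could not be called lower, and those at 0 UMIs had to be called higher. The count was therefore largely set by the rule and is not a like comparison with all genes. From E90 to E120, 8 of 35 were higher, against 7.64% of all genes, 8 were lower, against 24.7%, and 19 stayed within 2-fold. The share lower was thus near that of all genes, whereas 4 of the 6 members were lower and none higher. Its median log2 ratio was 3.83 for the first interval and 0.28 for the second, beside 0.36 and -0.35 over all measured genes. The E60 library held 3 epithelial-like cells, and the share of such cells in the library cannot be told apart from the level per cell in these ratios. The largest E60-to-E90 differences were those of SPINK5 (0 to 339 CPM), DSG1 (0.307 to 333 CPM) and KLK10, a kallikrein protease (0.169 to 201 CPM), and the smallest those of ST14, CST6 and ELOVL4 (log2 ratios 2.70, 2.51 and 2.31). At E120 S100A8 (log2 ratio 2.59), CST6 (2.33) and SULT2B1 (1.38) were higher than at E90, and SCEL (-2.69), ELOVL4 (-2.03) and the type II keratin KRT77 (-1.95) lower.

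In the SERPINA12 cluster 22 of the 24 differentiation genes read there were more than 2-fold above cells outside the epithelium and none was that much below, against 7.51% of 6868 genes above and 15.6% below. This count is not independent of the naming of clusters. The naming markers held 9 genes of this list, 8 of them at 10 CPM or more in the cluster. Genes were read at 10 CPM in either set, and some, such as CSTA (86.5 against 4.39 CPM), passed only through the cluster. Regulators of differentiation were less uniform. At E90, 13 of 15 were higher than at E60 (23.6% of all genes were), led by GATA3 (log2 ratio 6.57), TFAP2A (6.41) and ZNF750 (4.73), and then 2 were higher and 2 lower at E120 (7.64% and 24.7% of all genes), with KLF4 the lowest (-1.42) and JAG1 the highest (1.45). Regulators below 1 CPM at E60, such as GATA3 and ZNF750, could not be called lower at E90. Their medians were 1.76 and -0.20. In the SERPINA12 cluster 5 of 9 were more than 2-fold above the outside level and 1 was more than 2-fold below it. GATA3 and TP63, among these 9, also served as naming markers.

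Periderm, simple and mucosal genes gave 8 of 10 higher at E90 than at E60, among them LYPD2 (log2 ratio 7.15), KRT7 (6.81) and KRT8 (5.43), and 2 higher with 5 lower of 12 at E120, with medians of 3.43 and -0.63 (all genes: 23.6% higher at E90, then 7.64% higher and 24.7% lower). LYPD2 (-6.72), KRT7 (-2.77) and KRT8 (-1.79) were lowest at E120 and KRT23 (5.52) and KRT19 (2.81) highest, so this list did not share 1 course with KRT4. Basal genes gave 11 of 12 higher at E90 and 9 of 12 lower at E120, with medians of 3.22 and -2.16, read against the same shares. Of 33 other keratins, 16 of 16 measured were higher at E90, led by KRT17 (3332 CPM), KRT14 (759 CPM) and KRT5 (347 CPM). All of these but KRT17 (2.63 CPM) were below 1 CPM at E60. They were thus measured only through E90 and could not be called lower. Those at 0 UMIs, such as KRT14, had to be called higher, so the count was largely set by the rule. Periderm and basal genes below 1 CPM at E60 were bound in the same way. At E120 KRT5 (53.6 CPM), KRT15 (40.1 CPM), KRT7 (20.5 CPM) and KRT17 (588 CPM) were more than 2-fold lower than at E90, KRT14 (551 CPM) was within 2-fold, and the follicle keratins KRT85 (6796 CPM), KRT35 (5847 CPM), KRT71 (4012 CPM), KRT25 (1762 CPM) and KRT27 (1724 CPM) made up the largest share.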

How the data were processed

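The authors deposited 1 table of genes by cells for the whole series, with values on a natural log scale. Per the values, these are ln(1 + counts scaled to 10000 per cell). The submitters' processing notes name Cell Ranger 3.0.2. Build, annotation and cell filters are not given in the sources used here. The design had foreseen counts, so UMI counts were recovered from each cell's smallest value, and 100% of the nonzero values came out whole within 0.01. The table holds 20676 cells, and the study's text names 19705.

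Counts were summed per library or set of cells and given as CPM, with exact Poisson and Clopper-Pearson intervals of 95%. Log2 ratios between stages, and the calls of 2-fold made from them, used log2(CPM + 1) for genes reaching 1 CPM in either library. By this rule a gene at 0 UMIs in the earlier library is called higher whenever it is measured. Folds given with intervals are ratios of CPM with no pseudocount. Floors are 3 counts. Cells were clustered (2000 variable genes, 30 components, 20 neighbours, Leiden resolution 1; leidenalg 0.10.2, Python 3.11.15) without the 6 genes and the differentiation and periderm lists. Groups within clusters used resolution 0.6. A cluster took a class name from at least 3 markers and stayed unnamed where markers of another class, mitochondrial or haemoglobin genes led it. Clusters are called by a leading gene. Doublets were kept, and the 6% of cells with the highest scores were left out as an alternative. For shares of cells, each cell was thinned to 2000 UMIs. UMIs per gene depend on capture near the 3′ end, so ratios between genes were used to compare cells or sets of cells and do not give relative transcript amounts. The scripts were tested on simulated data.

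The members and lists were chosen with earlier results of these data known. Named beside the members were, for each, the 5 genes with the highest r over the cells of the library where it is highest, the 3 highest and 3 lowest of each list per comparison among genes of at least 10 CPM, and other keratins of at least 100 CPM. Alternatives covered the pseudocount, scaling, cell filters, class assignment, clustering, thinned depth, minimum count and doublets. RefSeq matched 5 of the 6 symbols, all but CALML5, and was used for gene order only.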

Additional observations from a re-analysis of the deposited data

How the results depend on the processing

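The directions of the stage ratios called for the 6 genes held under the other pseudocount, the other scaling, the cell filter and the removal of likely doublets, except that KRTDAP at E120 against E60 was no longer past 2-fold with a pseudocount of 10 CPM (log2 ratio 0.58). Median-of-ratios scaling shifted the median of all genes from 0.36 to -0.07 for E90 against E60 and from -0.35 to 0.05 for E120 against E90. With a pseudocount of 10 CPM, 3 genes of the differentiation list were higher and 5 lower at E120 than at E90, in place of 8 and 8. One member, SBSN, was found in over 10% of E120 cells at 2000 UMIs, 0 at 1000 UMIs and 2 without thinning. The share of KRT1 or KRT10 cells of the SERPINA12 cluster that also had KRT4 was 68.5%, and became 52.7% at a minimum of 2 UMIs, 56.6% at 1000 UMIs, 81.1% without thinning and 54.5% above the background bar, so this share depends on depth and threshold. The reverse share was 96.8% at 1000 UMIs.

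The number of epithelial-like cells at E90 ranged from 1146 to 3533 with the way of naming cells, and KRT1 in them from 2619 to 4818 CPM, always above the 596 CPM outside the epithelium. KRT10 at E60 was 0.896 CPM without likely doublets. At a finer resolution the KLK7-cluster group with the highest KRT1 and SBSN held 34 cells at 3914 and 17927 CPM, and KRT1 of the PAGE4 group was 1153 CPM without its top cell. That setting, the background bar and the finer resolution were chosen after seeing the data. Depth limits the shares of cells at E90, whose cells have a median of 3714 UMIs. No paired analysis was possible because each stage is 1 library.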
